A study of Mus musculus with 8 samples.

Results

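The promoters of *Kcnk9*, *Cobl* and *Slc22a3*, imprinted genes whose expression from 1 parental allele is known from single tissues such as brain or placenta, were examined in cultured germline stem (GS) cells. Every promoter cytosine that the deposited table assigned to these gene symbols was taken, which gave 228 sites of 203645 in the table, 152 at *Kcnk9*, 53 at *Cobl* and 23 at *Slc22a3*. The rule went by gene symbol and by dense coverage in this table. A GS cell line is a culture of spermatogonia that keeps stem cell function, and each line came from CD9-sorted spermatogonia of the testes of F1 mice of B6 background, all labelled wild type and grown in 1 medium with FGF2 and GDNF. The 4 control-F1 lines (29, 37, 44 and 45) descended from natural mating, and the 4 ICSI-F1 lines (11, 17, 20 and 21) from mice born after intracytoplasmic sperm injection (ICSI). Methylation was measured by reduced representation bisulfite sequencing (RRBS) with 1 library per line, so p-values measure the spread between lines, and the animals behind each line are not described in the labels. The table holds DNA methylation only, and no marker of the cell type could be checked in it. A methylation level is the share of reads at a cytosine that still carry C after bisulfite, in percent.

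In an imprinted gene the maternal and the paternal copy are used unequally, often because a control region elsewhere in the domain was methylated in only 1 of the parental germ lines. *Kcnk9* encodes a 2-pore potassium channel that is expressed from the maternal copy in brain, *Cobl* encodes an actin nucleator and lies beside the imprinted gene *Grb10*, and *Slc22a3* encodes an organic cation transporter that is expressed from the maternal copy in placenta, in the *Igf2r* domain. Germ cells of the male line carry paternal marks on both copies of the control regions, whereas CpG islands at promoters stay largely unmethylated in most cells. RRBS cuts DNA with MspI at CCGG, whether or not the inner CpG is methylated, and reads the ends of the short fragments.

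All 3 genes lie on the minus strand of mm10, so that sequence upstream of them runs to higher coordinates. *Kcnk9* (ENSMUSG00000036760) is listed on chromosome 15 from 72501089 to 72546340, *Cobl* (ENSMUSG00000020173) on chromosome 11 from 12236678 to 12464960, and *Slc22a3* (ENSMUSG00000023828) on chromosome 17 from 12419969 to 12507704. The *Kcnk9* sites covered 79 CpGs between 152 and 792 bp upstream of the listed start, 76 sites on each strand, and 99.6% of promoters in the table had fewer sites. The *Cobl* sites covered 27 CpGs between 3 and 139 bp upstream, and the *Slc22a3* sites 12 CpGs between 98 and 444 bp upstream. All *Kcnk9* and *Cobl* sites were annotated to a CpG island, and at *Slc22a3* 9 sites were in an island and 14 in its shore. No exon of the GENCODE M21 annotation overlapped these stretches. The following sequences, read from the plus strand of the RefSeq copy of the mm10 assembly, show the covered stretch next to each start, with the MspI site CCGG in capitals, because the level of a cytosine followed its place relative to these sites.
Kcnk9, chr15:72546484-72546783: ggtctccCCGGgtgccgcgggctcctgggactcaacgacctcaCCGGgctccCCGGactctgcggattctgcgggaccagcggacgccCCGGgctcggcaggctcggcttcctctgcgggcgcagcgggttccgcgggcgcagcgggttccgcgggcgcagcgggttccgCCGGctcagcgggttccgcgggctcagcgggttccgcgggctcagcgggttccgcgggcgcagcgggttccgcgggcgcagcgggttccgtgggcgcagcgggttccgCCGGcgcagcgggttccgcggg
Cobl, chr11:12464961-12465110: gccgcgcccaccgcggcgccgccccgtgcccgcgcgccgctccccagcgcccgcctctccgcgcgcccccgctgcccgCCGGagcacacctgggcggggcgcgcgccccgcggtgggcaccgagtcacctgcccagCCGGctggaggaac
Slc22a3, chr17:12507790-12508089: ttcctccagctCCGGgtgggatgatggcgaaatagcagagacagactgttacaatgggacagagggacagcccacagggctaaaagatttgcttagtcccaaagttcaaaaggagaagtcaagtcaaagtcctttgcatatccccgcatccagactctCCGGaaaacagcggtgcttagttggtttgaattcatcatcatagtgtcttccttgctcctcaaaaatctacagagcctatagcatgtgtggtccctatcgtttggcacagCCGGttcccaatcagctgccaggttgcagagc
Kcnk9, site with the highest level among those with fragments read on both sides, chr15:72546909-72546950: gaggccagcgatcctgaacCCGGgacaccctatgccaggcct
The *Kcnk9* stretch holds 50 CpGs in 300 bases and is built around a short repeat. Its most frequent 12-base word, cagcgggttccg, occurs 10 times there and on either strand in 0.00609% of 32851 RefSeq promoters of 300 bases, while CCGG occurs in 52.8% of them. The word was picked for its count in this stretch. These RefSeq promoters are not the stretches printed above, since that of *Kcnk9* holds 0 CCGG and the printed *Kcnk9* stretch 6. Whether reads from the repeat were placed at the right copy was not tested. The *Cobl* stretch holds 27 CpGs in 150 bases, and that of *Slc22a3* 7 CpGs in 300 bases, so the printed *Slc22a3* stretch is the CpG-poor one. It ends before the island, listed from 12508100, that holds 9 of the *Slc22a3* sites.

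Scaled read numbers at single sites ranged from 14 to 202 per line at *Kcnk9* (median 88), from 10 to 129 at *Cobl* (median 68) and from 15 to 202 at *Slc22a3* (median 123). With the scaling undone, lines had 9121937 to 16781748 reads over the whole table, line 37 having the fewest and line 45 the most. Lines 29, 37, 11 and 17 carry a different kind of source label from lines 44, 45, 20 and 21, and these 2 label sets cross the groups. The second label set had the higher levels in CpG islands of other genes (5.40 to 6.49% against 3.52 to 4.22%), so differences are also given within each set.

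*Slc22a3* had the highest promoter level and *Cobl* the lowest. Averaged over its sites, the *Kcnk9* promoter had 4.44% in line 29, 3.89% in line 37, 4.64% in line 44 and 4.67% in line 45 among control-F1 GS cells, and 3.59% in line 11, 3.10% in line 17, 4.31% in line 20 and 4.28% in line 21 among ICSI-F1 GS cells. At *Cobl* the control-F1 lines had 1.34%, 1.07%, 1.75% and 3.06%, and the ICSI-F1 lines 1.02%, 1.30%, 2.52% and 2.21%, in the same order of lines. At *Slc22a3* the control-F1 lines had 9.66%, 9.27%, 16.5% and 11.5%, and the ICSI-F1 lines 9.53%, 12.7%, 14.1% and 12.9%. The groups overlapped at all 3 promoters. Within each group, the lines of the second label set were the higher ones at all 3 promoters. Over the 8 lines the means were 4.12% ± 0.551 (SD, n = 8) at *Kcnk9*, 1.78% ± 0.742 at *Cobl*, and *Slc22a3* ranged from 9.27 to 16.5%. Among the 9224 promoters of the table, whose median level was 5.64%, 33.1% had a lower level than *Kcnk9*, 6.85% a lower level than *Cobl* and 77.6% a lower level than *Slc22a3*.

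The order *Slc22a3*, *Kcnk9*, *Cobl* held in each of the 8 lines. *Kcnk9* exceeded *Cobl* by 2.33 percentage points (range over lines 1.62 to 3.09), *Kcnk9* minus *Slc22a3* ran from −11.8 to −5.23 points, and *Cobl* minus *Slc22a3* from −14.7 to −8.19 points. Each of the 3 pairs differed with p = 0.00781 in an exact two-sided sign-flip test over lines, the smallest p that 8 lines allow. The lines share their sites within a promoter, so this test compares 3 stretches of DNA in the same libraries. Against 155928 CpG island sites of other genes in the same line, which had 4.94% on average (3.52 to 6.49% per line), *Cobl* was lower in all 8 lines, with a mean difference of −3.15 points, and *Slc22a3* higher in all 8, by 5.24 to 9.96 points (exact p = 0.00781 for each). The *Slc22a3* comparison is unlike in kind, since 14 of its 23 sites lie in the shore and only 9 in an island. Those 9 island sites had means of 3.47 to 10.4%. Against all promoter sites of other genes, *Slc22a3* was higher by 4.42 points (exact sign-flip p = 0.00781). *Kcnk9* was lower than the islands of other genes in 6 of 8 lines, with a mean difference of −0.820 points (exact sign-flip p = 0.0469). The *Kcnk9* difference was −0.135 points with medians over sites (exact p = 0.750) and missed the threshold without line 37, 17, 44, 45, 20 or 21, with exact p between 0.0625 and 0.0938.

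**Figure D1:**
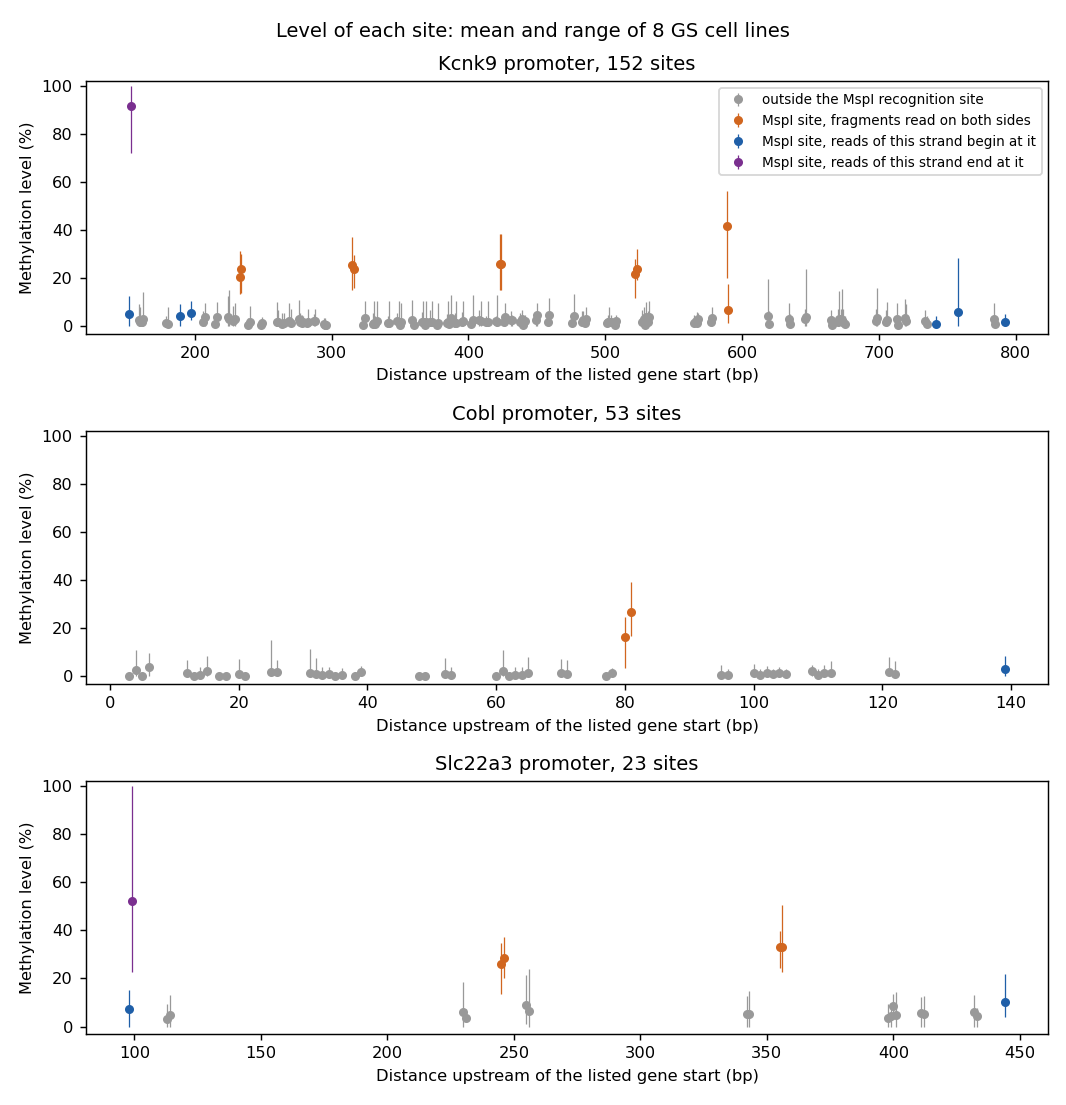
Methylation level of each site (y axis, percent) against its distance upstream of the listed gene start (x axis, bp), in 1 panel per gene. Points are means and bars the range over 8 lines, and colours give the place of the site in the MspI fragments. Sites outside the MspI recognition site lie along the bottom, with means up to 4.84% at Kcnk9, 4.07% at Cobl and 8.79% at Slc22a3.

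The level at a single cytosine followed the MspI sites. At *Kcnk9*, 17 of 152 sites lie in a CCGG, and these averaged 20.9% ± 1.56 (SD, n = 8), while the other 135 averaged 2.01% ± 0.616. At *Cobl*, 3 CCGG sites averaged 15.3% ± 2.48 and the other 50 averaged 0.971% ± 0.736. At *Slc22a3*, 7 CCGG sites averaged 27.2% ± 5.11 and the other 16 averaged 5.34% ± 1.71. The difference was positive in 8 of 8 lines for each gene, with 18.9 points at *Kcnk9*, 14.4 points at *Cobl* and 21.9 points at *Slc22a3* (exact sign-flip p = 0.00781 for each). Islands of other genes had the same split, with 22.4% at CCGG sites and 2.09% elsewhere, a difference of 20.3 points in 8 of 8 lines (exact p = 0.00781). This comparison was added after the levels had been seen.

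All sites with a mean of 10% or more in these promoters were CCGG sites, 10 at *Kcnk9*, 2 at *Cobl* and 6 at *Slc22a3*. Outside CCGG, 55.1% of 1080 values at *Kcnk9*, 78.2% of 400 values at *Cobl* and 21.9% of 128 values at *Slc22a3* were 0. At 12 *Cobl* sites no methylated read was seen in any line. These sites were singled out for that value, and all lie within 1 fragment, whose sites share reads. The one with the fewest reads had 293 over the 8 lines, with the scaling undone, which allows a level of up to 1.02% by counting error alone. Outside CCGG the means of the strands differed by at most 3.37 points at the 67 *Kcnk9* CpGs covered on both strands. At *Cobl* this was 4.07 points (25 CpGs) and at *Slc22a3* 3.82 points (8 CpGs). Site means there reached only 4.84% at *Kcnk9*, 4.07% at *Cobl* and 8.79% at *Slc22a3*. Such low levels leave little room for strands to differ, so these values do not test whether strands were alike.

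CCGG sites differed among themselves by strand and by which neighbouring fragments had been read. A fragment was counted as read when it held a covered CpG between its cuts. On 1 side of a cut the reads of a strand begin with the genomic CGG, and on the other side they end in the bases that end repair fills in during library preparation. At the 152 bp site of *Kcnk9*, where fragments of only 1 side were read, the plus strand, whose reads begin there, had 5.32%, and the minus strand, whose reads end there, had 91.8%. The minus-strand site had 89.2%, 71.9%, 92.9% and 95.7% in control-F1 lines 29, 37, 44 and 45, and 84.6% in ICSI-F1 line 11 and 100% in lines 17, 20 and 21. Every line was high at a cytosine whose opposite strand was low, on 13 to 35 reads with the scaling undone, and the Wilson 95% interval ran from 46.9 to 86.7% in line 37, the lowest line.

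The same arrangement stood at the 98 bp CCGG of *Slc22a3*, with 7.49% on the plus strand and 52.3% on the minus strand. There the minus-strand site had 32.3%, 22.8%, 88.5% and 38.1% in the control-F1 lines and 29.4%, 57.6% and 100% in ICSI-F1 lines 11, 20 and 21, and in line 17 it had 12 methylated of 24 reads. The lines were spread over most of the scale with the groups mixed (SD 28.3, n = 8), on 15 to 49 reads with the scaling undone. The 7 CCGG CpGs covered on 1 strand only were all of the kind whose reads begin at the cut, and had means of 0.995 to 5.93% at *Kcnk9*, 2.99% at *Cobl* and 10.4% at *Slc22a3*.

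Where fragments on both sides of a cut had been read, levels were intermediate. The 10 such *Kcnk9* sites averaged 24.0% ± 1.46 (SD, n = 8), the 2 *Cobl* sites 21.5% ± 3.88 and the 4 *Slc22a3* sites 30.1% ± 4.48. At *Kcnk9* the strands were alike at 233, 315, 423 and 522 bp, with means from 20.5 to 26.0%. The CCGG at 589 bp, the last sequence printed above, differed between strands, with 41.9% on the plus and 6.66% on the minus strand. Its plus strand had 28.6%, 20.2%, 55.0% and 44.6% in control-F1 lines 29, 37, 44 and 45, and 45.5%, 36.0%, 56.1% and 49.2% in ICSI-F1 lines 11, 17, 20 and 21. Lines 29 and 37 were the lowest and all other lines lay at or above 36.0%, yet the groups overlapped (37.1% ± 15.6 against 46.7% ± 8.40, SD, n = 4 each, exact permutation p = 0.286). At *Cobl* the CCGG at 80 bp had 16.3% on the plus and 26.7% on the minus strand, and at *Slc22a3* the sites at 245 and 355 bp had 26.0 to 33.1% on either strand.

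**Figure D2:**
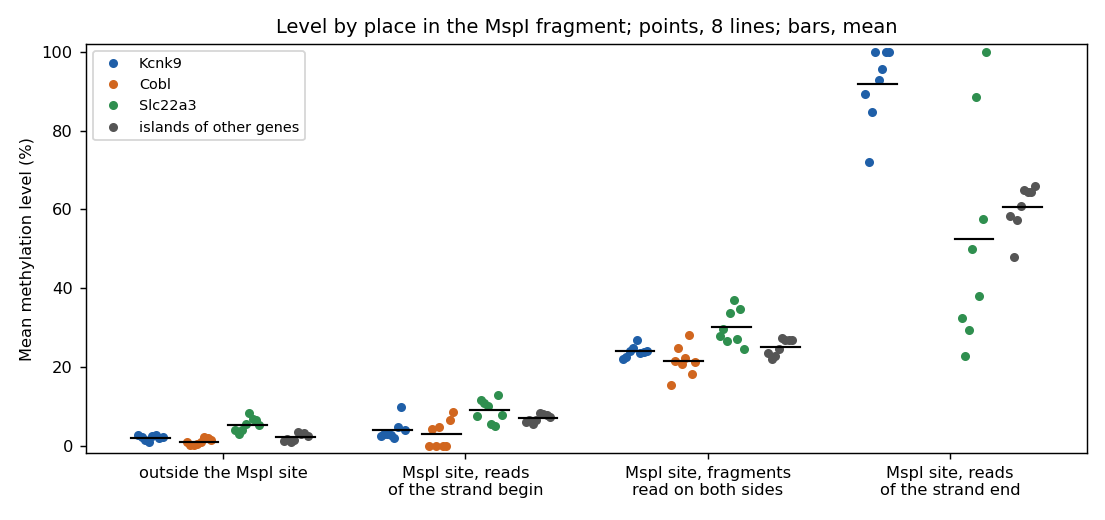
Mean methylation level (y axis, percent) of sites by their place in the MspI fragments (x axis), for the 3 promoters and for CpG islands of other genes. Points are the 8 lines and bars their means. Levels step from near 0 outside the MspI site to 24.0% (Kcnk9), 21.5% (Cobl), 30.1% (Slc22a3) and 25.0% (other islands) where fragments on both sides were read. Where the reads of the strand end, the means were 91.8% at Kcnk9, 52.3% at Slc22a3 and 60.6% in other islands, and Cobl had no such site.

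Islands of other genes gave 6.99% ± 1.01 (SD, n = 8) at the 7761 CCGG sites where reads of the strand begin, 25.0% ± 2.05 at 11201 sites read on both sides and 60.6% ± 6.03 at 2371 sites where reads of the strand end. The sites where reads end exceeded those where they begin by 53.6 points in 8 of 8 lines (exact sign-flip p = 0.00781). Trimming was run by the authors with settings for RRBS and for libraries of both orientations, and the part of filled-in bases in these levels was not tested. Since CCGG sites made up 11.2% of the sites at *Kcnk9*, 5.66% at *Cobl* and 30.4% at *Slc22a3*, promoter means also depend on that share. Outside CCGG the order of the genes held in 8 of 8 lines, with 1.04 points between *Kcnk9* and *Cobl* and −3.34 points for *Kcnk9* minus *Slc22a3*. *Kcnk9* then lay −0.0836 points from the islands of other genes (exact sign-flip p = 0.805, range over lines −1.16 to 1.56). *Cobl* differed from them by −1.12 points and *Slc22a3*, whose sites here include shore sites, by 3.25 points (exact sign-flip p = 0.00781 for both).

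Position along the promoter showed little beyond the CCGG sites. At *Kcnk9*, the 51 sites more than 500 bp upstream had 3.90% ± 1.04 (SD, n = 8) and the 101 nearer sites 4.23% ± 0.633, a difference of −0.331 points (exact sign-flip p = 0.445). With a limit of 250 bp, the difference of the farther sites was −4.51 points (3.40% against 7.91%, exact p = 0.00781). The 24 sites within 250 bp include 6 CCGG sites, among them the one with 91.8%, and in the bins of 250 bp the sites outside CCGG had 2.17%, 1.86%, 2.19% and 1.83% from the nearest to the farthest. At *Slc22a3* the 8 sites within 250 bp had 16.5% and the 15 beyond had 9.62% (exact p = 0.00781), but 4.40% and 5.66% outside CCGG (exact p = 0.250). *Cobl* and *Slc22a3* had no site beyond 500 bp, so the planned comparison could not be made for them.

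The study compared ICSI-F1 with control-F1 GS cells to ask whether ICSI left a change in the germ line of the F1 mice. At *Kcnk9* the promoter mean was 4.41% ± 0.360 (SD, n = 4) in control-F1 and 3.82% ± 0.586 in ICSI-F1 GS cells, a difference of −0.592 points (p = 0.171, two-sided, by exact permutation of the lines). At *Cobl* it was 1.81% ± 0.880 and 1.76% ± 0.714, a difference of −0.0434 points (exact permutation p = 0.914). At *Slc22a3* it was 11.7% ± 3.30 and 12.3% ± 1.96, a difference of 0.593 points (exact permutation p = 0.800). None of the 3 promoters passed at p of 0.05 or less, against 135 of 9224 promoters (1.46%), and the adjusted p over all promoters by the Benjamini-Hochberg method was 1.00 for each. The smallest p of this test, 0.0286, cannot pass that adjustment with this many promoters. Within the first and the second label set the differences were −0.823 and −0.362 points at *Kcnk9*, −0.0461 and −0.0407 points at *Cobl*, and 1.62 and −0.436 points at *Slc22a3*. At *Kcnk9* both ICSI-F1 lines lay below both control-F1 lines within each label set, as at 3.12% of promoters, while 2.46% were separated in the other direction. With lines permuted within label sets, a test added after the data were seen, the exact permutation p was 0.0556 at *Kcnk9*, the smallest that its 36 arrangements allow, 0.833 at *Cobl* and 0.778 at *Slc22a3*.

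**Figure D3:**
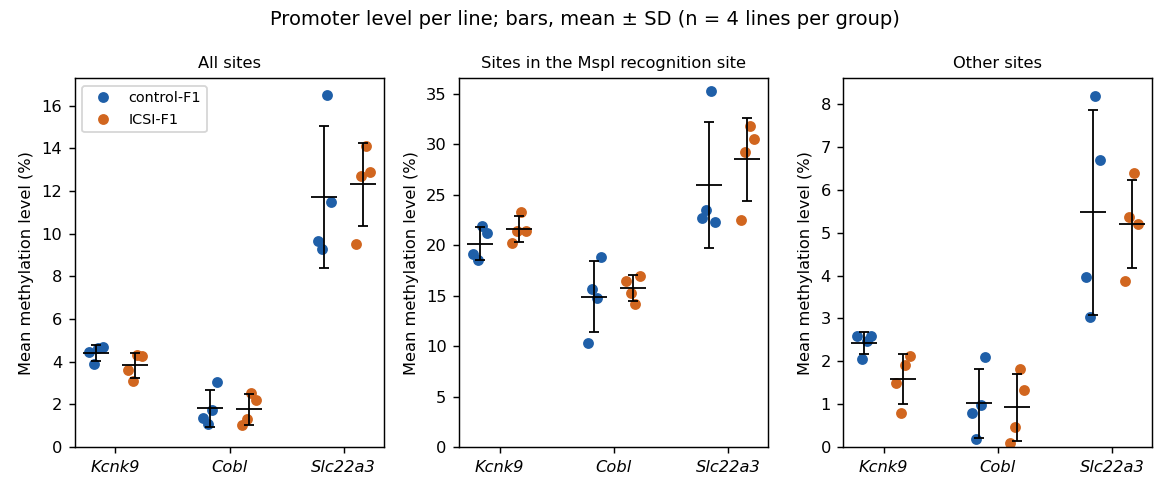
Mean methylation level of each promoter (y axis, percent) in control-F1 and ICSI-F1 lines, over all sites, over sites in the MspI recognition site and over the other sites. Points are lines, and bars are the mean ± SD of 4 lines. The groups overlap in every panel, and at Slc22a3 line 44 stands above the other control-F1 lines at 16.5% over all sites.

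Split by CCGG, the *Kcnk9* difference went in both directions. Outside CCGG, control-F1 lines 29, 37, 44 and 45 had 2.59%, 2.06%, 2.47% and 2.59%, and ICSI-F1 lines 17, 20 and 21 had 0.794%, 1.92% and 2.12%, with line 11 between lines 17 and 20. Only ICSI-F1 line 21 lay within the control-F1 range, and the difference was −0.844 points (exact permutation p = 0.0571, above the threshold). Within each label set the lines were separated here too, as at 4.19% of promoters outside CCGG, against 1.70% in the other direction (exact permutation p within label sets 0.0556). At CCGG sites the ICSI-F1 mean was higher by 1.41 points (exact permutation p = 0.229). At islands of other genes the difference outside CCGG was −0.394 points (exact permutation p = 0.600).

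No site of the 3 promoters passed a 20% rule after the study, which took sites with a change over 20% between groups and left out those reversed in any sample. The methods do not define a reversal, which was read here as any ICSI-F1 line beyond the control-F1 mean on the opposite side. With that reading, 660 of all 203645 sites passed (0.324%), with 0.274% of sites higher and 0.0506% lower in ICSI-F1. The paper reported fewer sites past its rule, out of a larger set of covered sites than that used here. Its number is nearer to that of the stricter reading given next. Since the sets of sites differ, the numbers do not decide between the readings. The share of the first reading is therefore not to be taken as the rate of the study. Read as no overlap between the groups, the rule left 155 sites in the table and again none at these promoters. With a limit of 10 points there was no such site at these promoters, against 1.36% of all sites. Differences of group means ranged from −5.89 to 9.58 points at *Kcnk9*, from −3.75 to 3.85 at *Cobl* and from −6.26 to 13.8 at *Slc22a3*. The largest, at the minus-strand site 99 bp upstream of *Slc22a3* described above, was 45.4% ± 29.4 in control-F1 against 59.2% ± 29.7 in ICSI-F1 GS cells (SD, n = 4 each, exact permutation p = 0.514). It passed the rule only when ICSI-F1 line 11 was left out. CCGG sites were 17.1% of the table and 327 of the 660 sites past the rule.

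**Figure D4:**
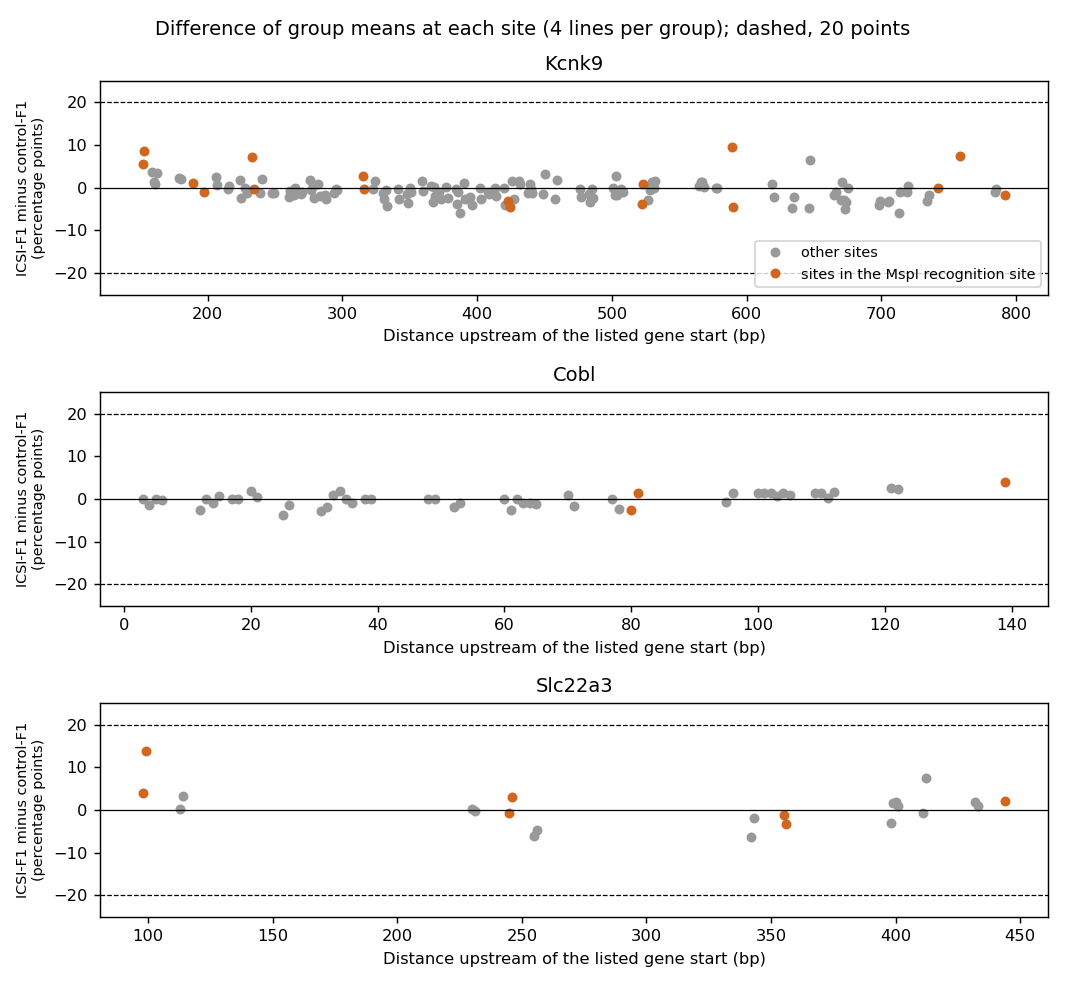
Difference of the group means at each site, ICSI-F1 minus control-F1 (y axis, percentage points, 4 lines per group), against the distance upstream of the listed gene start (x axis, bp). Dashed lines mark 20 points in either direction. All sites lie inside them, from −5.89 to 9.58 at Kcnk9, −3.75 to 3.85 at Cobl and −6.26 to 13.8 at Slc22a3.

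A site-by-site test was run on scaled read numbers, with the spread between lines as moderated dispersion. It called none of the 196818 sites that varied at a false discovery rate of 0.05 (0%). The lowest adjusted p at a site of these promoters was 0.702 in this test. At an unadjusted p under 0.05 it gave 23 of 216 tested sites here, 21 of them lower in ICSI-F1, against 13901 sites in the table (7.06%), of which 8793 were lower. limma on log2 ratios also called no site, and 6861 sites had an unadjusted p under 0.05 with it, 9 of them at these promoters (8 lower). With the label set in the limma model the count at these promoters was 14 of 216, against 10205 of 196818 in the table. In the read-number test without line 29 it was 15 of 209 (13 lower), against 16865 of 195701. Without line 29 the share at these promoters was thus below that of the table. With any other single line left out, 19 to 24 sites here had such a p, a share above that of the table. The 23 sites of the read-number test were 20 at *Kcnk9*, all lower in ICSI-F1, 1 higher at *Cobl*, and 1 higher and 1 lower at *Slc22a3*. Of the 20 *Kcnk9* sites, 11 lay in the fragment from 315 to 423 bp and 8 in that from 589 to 741 bp. Sites of a fragment share reads. The fragment from 315 to 423 bp lies within the short repeat of *Kcnk9*, where the placement of reads was not tested.

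The 38 sites inside the first of these fragments averaged 5.35% in control-F1 line 29 and 0.343%, 1.56% and 2.23% in lines 37, 44 and 45, against 1.19%, 0.390%, 1.27% and 0.895% in ICSI-F1 lines 11, 17, 20 and 21. The 24 sites inside the second averaged 5.78% in control-F1 line 37 and 1.63%, 3.76% and 1.89% in lines 29, 44 and 45, against 0.515%, 0.521%, 1.43% and 2.56% in the ICSI-F1 lines. A different control-F1 line was the highest in each fragment, and the groups overlapped in both (exact permutation p = 0.229 and p = 0.114).

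The groups did not overlap at 4 of the 228 sites, 3 at *Kcnk9* and 1 at *Slc22a3*, against 1.11% of sites in the table. The *Slc22a3* site, 412 bp upstream on the minus strand and inside the island, had 0%, 0%, 2.23% and 3.27% in the control-F1 lines and 9.23%, 12.6%, 8.92% and 4.41% in the ICSI-F1 lines. All ICSI-F1 lines were above all control-F1 lines, with 1.38% ± 1.64 against 8.79% ± 3.36 (SD, n = 4 each), the smallest p that the exact permutation test allows (0.0286) and an adjusted p of 0.702 in the site test. Its partner on the plus strand, at 411 bp, had 9.28%, 8.89%, 3.42% and 3.03% in the control-F1 lines and 7.14%, 0%, 2.20% and 12.4% in the ICSI-F1 lines, where the groups overlapped. The *Kcnk9* sites, on the plus strand at 458, 646 and 713 bp, were lower in ICSI-F1 GS cells, with 3.11% against 0.403%, 5.47% against 0.625% and 5.80% against 0%. All 4 sites were picked out here for the lack of overlap, which by itself fixes the exact permutation p at 0.0286. Their values are therefore a description.

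Promoters of other imprinted genes spread over a wide range of levels. Of 10 listed neighbours of the 3 genes, 4 had sites (79 in all). They were *Ago2*, a core protein of RNA interference, with 1.26%, *Chrac1*, a chromatin remodelling subunit, with 3.42%, *Grb10*, a growth factor receptor adaptor, with 12.8% on 3 sites, and *Trappc9*, a vesicle trafficking protein, with 25.6% on 3 sites that were all CCGG. *Chrac1* was lower in ICSI-F1 GS cells, with a difference of −4.05 points (exact permutation p = 0.0286, adjusted p over all promoters 1.00), and no site of the 4 genes passed the 20% rule. Of 40 further genes listed as imprinted in a limited set of tissues, 16 had sites (365 in all), with a median promoter level of 5.65% against 5.64% over all promoters. None of the 16 passed the promoter test, and the median group difference was −0.500 points against −0.161 over all promoters. Levels ran from 1.33% at *Copg2*, a vesicle coat gene, to 53.9% at *Blcap* on 2 sites. Only *Dio3*, which inactivates thyroid hormone, had a site past the 20% rule, 1 of 77, higher in ICSI-F1. That is 0.274% of the 365 listed sites, close to the 0.324% of all sites that passed with the first reading of the rule used here. These genes had 20.7% at CCGG sites and 2.55% at the others.

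Among 3504 promoters with at least 20 sites, the profile over the 8 lines most like that of *Kcnk9* was that of *Gars* (Pearson r = 0.953), followed by *Gm15046* (r = 0.950). For *Cobl* these were *Baz1b* (r = 0.993) and *Zdhhc7* (r = 0.989), and for *Slc22a3* *Cfap299* (r = 0.980) and *Brpf3* (r = 0.979). These are the highest of many values over 8 lines of the same libraries and are given as a description.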

How the data were processed

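The samples were 8 GS cell lines with 1 RRBS library each. The authors' steps are taken from the paper's methods and the submitters' processing notes. Paired reads of 150 bp were trimmed with Trim Galore 0.5.0, and Bismark 0.20.0 was used for alignment to mm10. C and T reads at each cytosine were counted with methylKit, requiring at least 10 reads. The notes give methylKit 1.16.0 and the methods an earlier version. The deposited read numbers had been scaled between lines by the authors and rounded, so they were treated as a score and not as raw counts. The scaling factor of each line, 1.00 to 1.88, was recovered from the gaps between values, and 100% of values came out as whole reads. Reads carried no molecular identifiers, so intervals and limits cover counting error only. Promoters were those of the table, 1 kb upstream of Ensembl genes.

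A level is methylated reads over methylated plus unmethylated reads, and a promoter level is the unweighted mean over its sites. Groups came from sample titles. Group differences were tested over the 70 arrangements of 4 against 4 lines, and differences within lines by exact sign flips. The site test was a quasi-binomial model with dispersion moderated by limma 3.58.1 in R 4.3.3, fitted on all sites, with the Benjamini-Hochberg adjustment. On simulated data it recovered 62% of sites raised by 20 points and 94% of sites raised by 30 points. Changes under 20 points were not simulated, so its power for them is not known. MspI sites were read from RefSeq's copy of mm10. Sites named singly were the 3 highest, the 2 with the largest difference and the 2 with the largest SD per gene, and others were named after their values were seen. The members and lists were chosen with earlier results of these data known. Python 3.11.15 with numpy 2.4.6 and scipy 1.17.1 was used. The alternatives are given in the closing section.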

Additional observations from a re-analysis of the deposited data

Results flagged for a closer look

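In 4 of 42 groups of 4 lines, 1 line stood far from the other 3, where chance marks about 1 in 20 groups. That rate does not hold for 3 of the 4, in which the other lines were tied at 0 or 100%, so that any other value would have been marked. Over the CCGG sites of *Slc22a3*, control-F1 line 44 had 35.3% while the other control-F1 lines had 22.3 to 23.5%. Without line 44 the *Slc22a3* group difference over all sites was 2.17 points. At the *Kcnk9* site 153 bp upstream on the minus strand, ICSI-F1 line 11 had 84.6% and the other ICSI-F1 lines 100%. At the *Cobl* site 139 bp upstream on the minus strand, control-F1 line 37 had 4.26%, and at the *Cobl* site 25 bp upstream on the plus strand, control-F1 line 29 had 15.0%. The other control-F1 lines had 0% at both *Cobl* sites.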

How the results depend on the processing

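Of 237 alternative values, 191 kept their direction and their side of the threshold, or for counts stayed within 1.5 times. The alternatives that split sites by CCGG were chosen after seeing the data. The *Kcnk9* group difference kept its sign except at CCGG sites (1.41), between −0.765 and −0.351 with single lines left out. The *Cobl* difference turned positive with pooled reads (0.372), at least 20 or 30 scaled reads (0.205), strands joined (0.138) and at CCGG sites (0.848), was 0 with medians, and ranged from −0.295 to 0.374 with single lines left out. The *Slc22a3* difference turned negative with at least 20 or 30 scaled reads (−0.00909), outside CCGG (−0.270) and in the second label set (−0.436), and ranged from −0.221 to 2.17 with single lines left out. None of these differences passed its test in any setting that had one. Within a single label set no test was run. The permutation of lines within label sets could not pass, since its smallest exact p is 0.0556. *Kcnk9* against islands missed the threshold with medians (−0.135), outside CCGG (−0.0836) and without any 1 of 6 lines (range over all 8 lines left out −1.02 to −0.672). With medians, *Cobl* against islands (−1.06) and *Kcnk9* minus *Cobl* (0.930) also missed it. The *Kcnk9* difference by distance was −4.51 at 250 bp, 0.603 with at least 30 scaled reads and 0.250 outside CCGG, and that of *Slc22a3* at 250 bp was 1.26 outside CCGG. The sites past the 20% rule in the table numbered 2770 at 10 points, 155 without overlap of the groups, 379 with strands joined, 2202 and 1393 in the first and second label set, 333 outside CCGG, and 596 to 1227 with single lines left out, the most without line 44. At the 3 promoters the count was 0 to 1 with single lines left out, 1 without line 11, and 0 otherwise. The site test called 0 to 70 sites of the table with single lines left out, the most without line 44, and 0 at the 3 promoters. The causes were not tested. No paired analysis was possible because the line numbers are not shared between the groups.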
